A study of Mus musculus with 7 samples.

Results

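Translation initiation factors, translation elongation factors and aminoacyl-tRNA synthetases were examined here for the accessibility of their start regions in young and aged mouse liver. The genes were taken by symbol from the protein-coding genes of GENCODE M21: all Eif1 to Eif6 genes apart from the eIF2 kinases, all Eef1 and Eef2 genes including the enzymes that modify these factors, and all cytosolic and mitochondrial tRNA synthetase genes with a standard symbol. The rule gave 101 genes of 21951. For 98 of them at least 1 accessible region overlapped an annotated transcription start site (TSS) ± 200 bp, which gave 104 regions out of 55680 in the whole table. Eef1a2, Eif3j2 and Eif4e1b had none. Where a gene had several such regions (5 genes) the one with the highest mean signal stood for it, and since Hars and Hars2 share 1 region, the 98 genes rest on 97 regions.

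The data are ATAC-seq read counts. ATAC-seq uses a transposase that inserts sequencing adapters into open chromatin, so that the number of reads in a region measures its accessibility. The libraries were made from nuclei of pieces of liver tissue of male C57BL/6N mice, untreated and without a transgene as far as the labels say. There were 3 libraries from 3-month-old (young) and 4 from 18-month-old (aged) animals. By the series' design text the 4 aged libraries came from 3 animals, 1 of which was sampled in different lobules, whereas the study's own text counts each aged library as a separate mouse. Which libraries share an animal is not given in the sources used here.

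Protein synthesis starts when eIF2, loaded with GTP and the initiator tRNA, joins the small ribosomal subunit together with eIF1, eIF1A, eIF3 and eIF5. The eIF4F complex brings the subunit to the capped mRNA, eIF5B joins the large subunit, and eEF1A and eEF2 then drive elongation. The tRNA synthetases charge each tRNA with its amino acid. In liver, which makes most plasma proteins, phosphorylation of eIF2 by stress kinases blocks its recycling by eIF2B and lowers overall protein synthesis while the transcription factor ATF4, which activates several synthetase genes, is still made.

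Reads in regions summed to between 5709327 and 25461110 per young library and to between 4474652 and 11717992 per aged library. Over all regions, 3198 passed an adjusted p of 0.05 (edgeR quasi-likelihood test, Benjamini-Hochberg adjustment), 42.5% of them more accessible in aged liver. With other scalings this share was 63.1% (offsets on GC content), 32.6% (offsets on mean abundance) and 15.6% (total counts), and with DESeq2, where the test differs too, it was 58.8%. The start regions of the hepatocyte genes Alb, Apoa1, Ttr and Tat were all accessible, with summed signal of 387.6 to 453.0 CPM (reads per 1000000 reads in regions, after TMM scaling of the libraries) in young and 491.3 to 597.2 CPM in aged samples. Of 7 immune marker genes only Clec4f had a start region (2.2 to 2.6 CPM in young and 0.6 to 2.8 CPM in aged), while Ptprc, Cd3e, Cd79a, Csf1r, Adgre1 and Lyz2 had none. Of 10 endothelial, stellate and cholangiocyte markers 6 had one, with summed signals of 47.4 to 53.0, 8.0 to 9.2 and 41.7 to 49.5 CPM in young and 38.2 to 66.7, 5.7 to 8.2 and 36.7 to 54.3 CPM in aged samples. The hepatocyte sum was higher in every aged sample through Apoa1, the only marker called (log2-fold change 0.53, adjusted p = 0.0331), and without it the sums overlapped (214.5 to 263.9 CPM in young and 219.5 to 297.7 CPM in aged). The sums of the other lists overlapped as well, although Epcam (-0.77, adjusted p = 0.116) and Col1a1 (-0.36, adjusted p = 0.378) were each lower in every aged sample. As this is bulk tissue, a change in the share of a cell type and a change of accessibility within cells cannot be told apart, and the part that cell composition has in the results was not tested.

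In aged liver the start regions of 3 of the 98 genes, Eif5b, Eif2a and Sars, were more accessible, and none was less accessible at the adjusted threshold of 0.05. These 3 genes are 3.06% of the members, against 2.44% of all regions and 4.54% of the 13711 promoter regions of protein-coding genes that were called in this direction. The corresponding shares called less accessible were 3.30% of all regions and 1.82% of promoter regions. At an unadjusted p under 0.05, 23 members were higher (23.5%, against 23.9% of promoter regions) and 2 lower (2.04%, against 8.79%). DESeq2 called 9 higher and none lower, and called 10.4% of promoter regions higher. The share of called members was thus near that of promoters in general.

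Most members nonetheless had a positive difference. The log2-fold change (aged over young) was above 0 for 76 of 98 genes (77.6%), against 62.4% of promoter regions and 46.6% of all regions. Its median was 0.15 (quartiles 0.03 and 0.27, range -0.50 to 0.52), beside 0.10 for promoter regions and -0.04 for all regions. With total counts as library size the median of all regions moved to -0.15 and that of the members to 0.04, as this scaling shifts all regions by a like amount. With offsets on mean abundance, which remove any trend of the fold change with signal, the median of the members was -0.03 and only 40 genes were positive. Every aged sample lay above every young sample at 23 genes (23.5%), against 21.4% of promoter regions and 10.2% of all regions, and every aged sample lay below every young one at 4 genes (4.08%), against 8.62% and 11.6%.

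**Figure D1:**
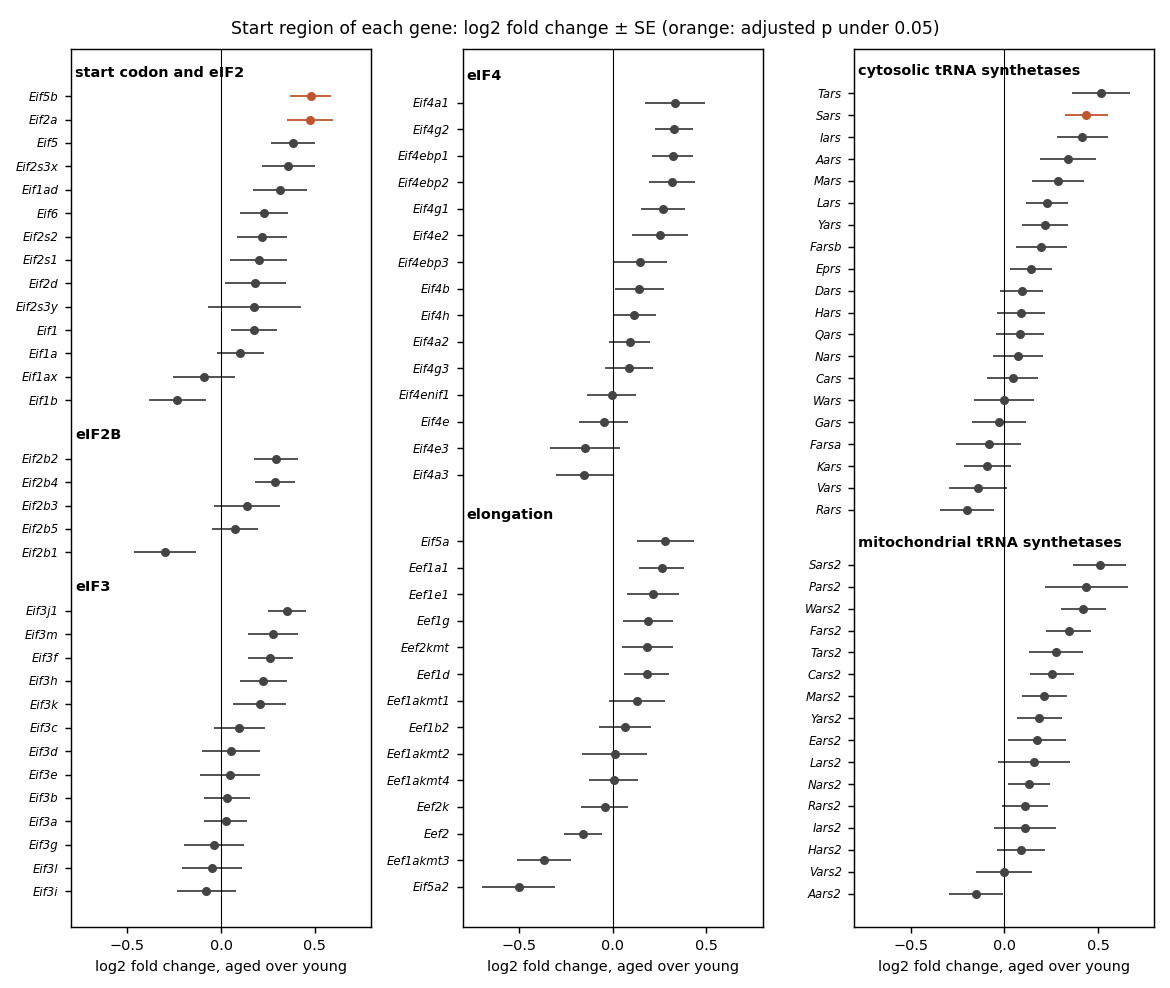
Log2-fold change of accessibility (aged over young, x axis) ± SE at the start region of 97 of the 98 genes, grouped by role. Orange marks the 3 genes with an adjusted p under 0.05 (Eif5b, Eif2a and Sars), and most of the other points lie right of 0 with standard errors between 0.10 and 0.25.

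The standard errors of the log2-fold changes ran from 0.10 to 0.25 with a median of 0.13. For 52 of 98 genes the 95% confidence interval lay within ± 0.5 on the log2 scale, so larger differences at these genes lie outside their intervals. The lowest count of any member in any library was 25 reads, at Eif2s3y, and the highest was 3541.

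The first of the called genes, Eif5b, encodes the GTPase that joins the large ribosomal subunit to the initiation complex. Its region (GRCm38, chr1:37996877-37998729) covers the start of Eif5b and that of Txndc9, which is transcribed in the other direction. Accessibility was 93.8, 84.7 and 76.1 CPM in the young samples and 116.2, 115.1, 124.4 and 118.4 CPM in the aged samples. All aged values were above all young ones, and the log2-fold change was 0.48 (SE 0.11, adjusted p = 0.0253 by edgeR).

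Eif2a, in spite of its name, does not encode a subunit of eIF2: its product is a separate protein that can deliver initiator tRNA. Its region (chr3:58524741-58526290) also holds the start of Serp1. It had 63.9, 68.1 and 52.0 CPM in young and 92.4, 74.5, 84.7 and 89.9 CPM in aged samples. The groups did not overlap, with aged replicate 2 closest to the young samples (log2-fold change 0.47, SE 0.12, adjusted p = 0.0407). Because the start regions of Eif5b and Eif2a each hold the start of a second gene, their counts cannot be assigned to either gene.

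Sars, the cytosolic seryl-tRNA synthetase gene, has a region of its own (chr3:108443968-108445499) that lies over its start. It measured 33.1, 31.2 and 36.0 CPM in young and 45.9, 40.2, 48.6 and 45.6 CPM in aged samples. Again each aged sample was above each young one, with a log2-fold change of 0.44 (SE 0.12, adjusted p = 0.0429). None of the 3 calls held in every setting: of 23 other settings, Eif5b passed in 16, Sars in 11 and Eif2a in 10, and none of them passed without aged replicate 1, without aged replicate 3, without young replicate 1 or without young replicate 2. With offsets on mean abundance the log2-fold changes themselves were smaller, at 0.16 for Eif5b, 0.20 for Eif2a and 0.26 for Sars.

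Just outside the threshold were Sars2 (adjusted p = 0.0505), Wars2 (0.0545), Eif3j1 (0.0589) and Tars (0.0611), all with higher means in aged liver. Sars2 encodes the mitochondrial seryl-tRNA synthetase, and its region also covers the start of the mitochondrial ribosomal protein gene Mrps12. It had 35.3, 34.1 and 24.8 CPM in young and 50.9, 38.8, 43.7 and 46.1 CPM in aged samples. Thus Sars and Sars2, which charge the same amino acid in cytosol and mitochondria, both had non-overlapping groups with higher values in aged liver. Tars, the cytosolic threonyl-tRNA synthetase gene, had the largest log2-fold change of all members (0.52, SE 0.15), with 50.5, 50.2 and 34.4 CPM in young and 67.1, 51.6, 66.1 and 74.6 CPM in aged samples. Young replicate 3 was low and aged replicate 2 lay next to the young samples.

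**Figure D2:**
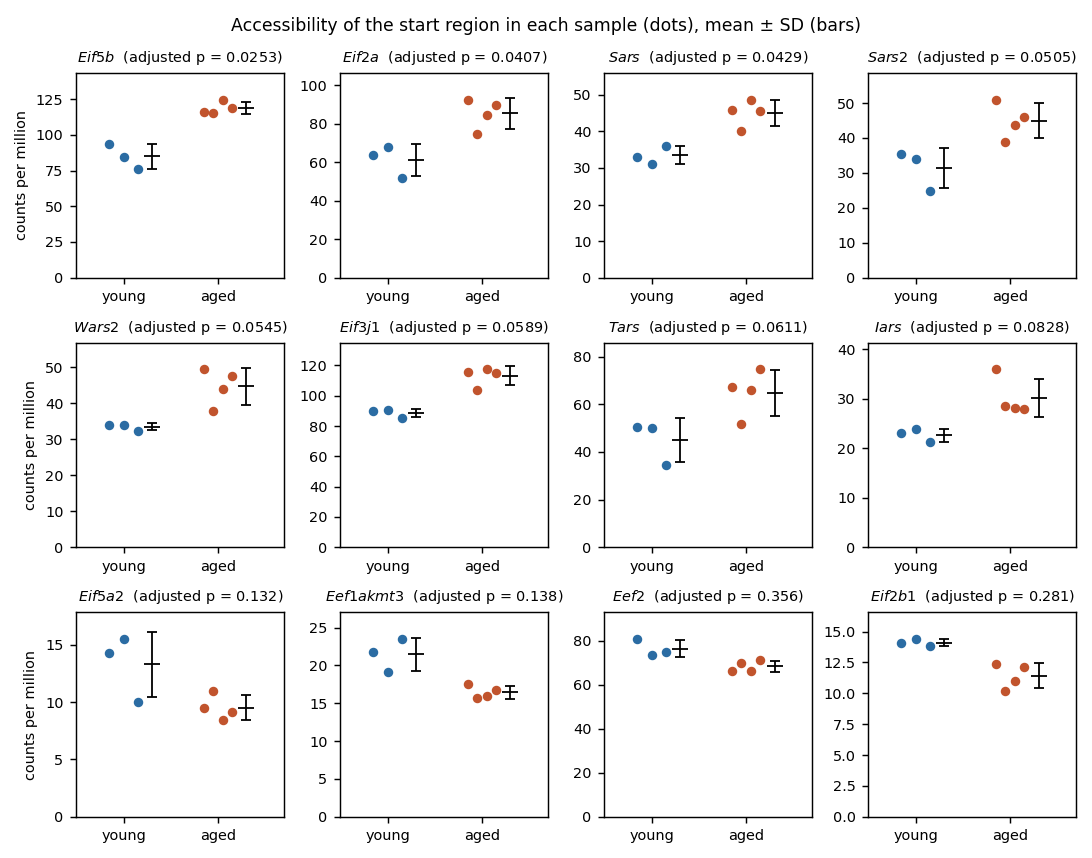
Accessibility (CPM, linear axis from 0) of 12 start regions in each young (blue) and aged (orange) sample, with mean ± SD as bars. The upper rows show the 3 called genes and 5 further genes with higher aged values, and the lowest row shows 4 genes with lower aged means, of which only Eif5a2 has overlapping groups.

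The sequence around the annotated start of the 3 called genes is shown for comparison with Eef1a1 and Eef2, whose mRNAs are known for a terminal oligopyrimidine tract that ties their translation to mTOR, and with the members whose RefSeq start does begin with a C and 4 pyrimidines. Each line gives the 25 bases before the start and, in capitals, the first 5 transcribed bases (RefSeq, GRCm38.p6), at chr1:37997985-37998014, chr3:58525796-58525825, chr3:108445255-108445284, chr9:78481720-78481749, chr10:81176606-81176635, chrX:94212647-94212676, chr7:108934390-108934419 and chr3:99141065-99141094 in the order of the lines. Sars, Eef1a1 and Eif2s3x lie on the minus strand and the others on the plus strand.
Eif5b: gcggcgagggggcgcctgggttcccACCTG
Eif2a: ccccgcggaagtgtggactccgcccGCTCC
Sars: tgcctaacactgcggcttccggcgaGCTAG
Eef1a1: ggtgtcgtgtgctggctccgccctcTTCCC
Eef2: ggcgtcgacctataaaaggccgggcGTTGA
Eif2s3x: tgtcaggcggctgccgagcattttcCTTTT
Eif3f: ctcacgctcttctgttctaggctctCTCTC
Wars2: gtcattccgggccggcggccccgccCTTCT

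A RefSeq promoter (250 bases before to 50 after the start) matched the region of 72 of the 98 genes. Of these 72, 3 began with a C and 4 pyrimidines (4.17%), against 2.51% of all 32851 RefSeq promoters. At the annotated starts of Eif5b, Eif2a, Sars, Eef1a1 and Eef2 these letters were not present, which says nothing of starts used in liver. The median log2-fold change was 0.36 for the 3 genes with the letters and 0.17 for the 69 without.

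Among the start codon factors and eIF2 (14 genes), 2 passed the test and the median log2-fold change was 0.21 (0.34 without young replicate 1). This group was formed by symbol alone and so also holds Eif1ad, Eif2a, Eif2d and Eif6. In addition to Eif5b and Eif2a, the groups did not overlap at Eif5 and Eif2s3x, with higher aged values, and at Eif1b, with lower aged values. Eif5, the GTPase-activating protein of eIF2, had the strongest region of the group per length (57.5 CPM per kb). It measured 106.1, 111.4 and 92.1 CPM in young and 137.8, 115.7, 142.6 and 142.9 CPM in aged samples (log2-fold change 0.38, SE 0.12, adjusted p = 0.0678). Eif1b, a paralog of the start codon factor gene Eif1, measured 18.8, 17.5 and 20.7 CPM in young and 17.0, 15.5, 17.3 and 14.5 CPM in aged samples (-0.23, SE 0.15, adjusted p = 0.361), whereas Eif1 itself had a log2-fold change of 0.18 (SE 0.12).

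All 4 genes of eIF2 subunits had positive log2-fold changes, from 0.18 to 0.36, and none passed the test. Eif2s1, which encodes the alpha subunit that the stress kinases phosphorylate, measured 68.9, 61.3 and 46.0 CPM in young and 76.1, 52.4, 67.9 and 73.9 CPM in aged samples, and the groups overlapped (0.20, SE 0.15, adjusted p = 0.447). The gamma subunit is encoded by an X and a Y copy. The X copy Eif2s3x had 16.8, 15.7 and 17.1 CPM in young and 20.6, 19.2, 21.9 and 22.7 CPM in aged samples, without overlap (0.36, SE 0.14, adjusted p = 0.138). The Y copy Eif2s3y had the weakest region of all members, with 7.03, 5.03 and 5.10 CPM in young and 8.43, 5.69, 5.84 and 5.47 CPM in aged samples, and the groups overlapped (0.18, SE 0.25, adjusted p = 0.701). Its sign rested on aged replicate 1, without which the log2-fold change was -0.02.

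The 5 genes of eIF2B, the exchange factor that reloads eIF2 with GTP, went in both directions and none passed the test. Their median of 0.14 depended on single libraries. It became 0.07 if young replicate 2 was left out, 0.26 if young replicate 3 was left out and 0.23 if aged replicate 4 was left out. Eif2b4 (delta subunit), whose region it shares with Snx17 and which was the strongest of the group at 59.7 CPM per kb, had 85.5, 77.1 and 74.0 CPM in young and 95.2, 88.3, 99.5 and 102.2 CPM in aged samples. Eif2b2 (beta subunit) had 30.1, 32.5 and 28.3 CPM in young and 39.8, 37.3, 36.4 and 35.3 CPM in aged samples. Both were higher without overlap (log2-fold changes 0.29 and 0.29, adjusted p = 0.12 and 0.142). Eif2b1 (alpha subunit), at a start region shared with Gtf2h3, showed the opposite order, with 14.1, 14.4 and 13.8 CPM in young and 12.4, 10.2, 11 and 12.1 CPM in aged samples (-0.30, SE 0.16, adjusted p = 0.281). With offsets on mean abundance the value of Eif2b4 changed sign, to -0.02.

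The 13 genes of eIF3, the multi-subunit scaffold on the small ribosomal subunit, had a median log2-fold change of 0.05, and none was called. This median was 0.03 if aged replicate 1 was left out, 0.08 if aged replicate 2 and 0.12 if aged replicate 4 was. It was 0.11 and 0.10 if young replicate 1 or 3 was. Their values ran from -0.08 at Eif3i (SE 0.16) to 0.35 at Eif3j1 (SE 0.10). Eif3j1 encodes the loosely bound j subunit and was also the strongest region of the group. It had 89.8, 90.7 and 85.3 CPM in young and 115.9, 103.8, 117.4 and 115.3 CPM in aged samples, with no overlap (adjusted p = 0.0589). Eif3i, at a region shared with Tmem234, had 13.7, 14.0 and 15.3 CPM in young and 14.3, 14.1, 12.6 and 12.9 CPM in aged samples, which overlapped.

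None of the 15 genes of eIF4 and its binding proteins was called (median 0.14, and 0.09 without young replicate 3). Every aged sample was above every young one at 4 of them: Eif4g1, the scaffold of the cap-binding complex (0.27), Eif4g2, a relative of it that does not bind the cap protein eIF4E (0.33), and Eif4ebp1 and Eif4ebp2, inhibitors of eIF4E under the control of mTOR (0.32 and 0.31). The group's strongest region was that of Eif4g2 (63.5 CPM per kb), with 91.2, 92.3 and 84.8 CPM in young and 111.5, 109.0, 114.4 and 114.5 CPM in aged samples (SE 0.10, adjusted p = 0.0681). Eif4e itself had a log2-fold change of -0.05 (SE 0.13, adjusted p = 0.854). The helicase gene Eif4a1 had the highest value of the group (0.33), but its groups overlapped, as young replicate 3 stood at 58.5 CPM beside 95 and 88.8 CPM in the other young samples and aged samples ran from 83.0 to 113.3 CPM (adjusted p = 0.212). Eif4a3, the helicase of the exon junction complex, was lowest with 30.1, 26.6 and 24.5 CPM in young and 25.8, 20, 29.6 and 22.4 CPM in aged samples (-0.15, SE 0.15, adjusted p = 0.574). With offsets on mean abundance the median of the eIF4 genes was -0.07.

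The elongation genes (14 with a region) held the lowest values of all members, and none was called. Their median of 0.10 became 0.05 if aged replicate 1 was left out, 0.15 if aged replicate 2 was and 0.17 if young replicate 1 was. The 7 genes of the factors themselves had a median of 0.18, and the 6 genes of their kinase and methyltransferases had a median of 0.01. Eef1e1, taken by its symbol, encodes a scaffold protein of the multisynthetase complex and stood at 0.22 (SE 0.14). Eif5a2, a paralog of the hypusinated elongation factor gene Eif5a, had the most negative log2-fold change of all members, -0.50 (SE 0.20, adjusted p = 0.132). It measured 14.3, 15.5 and 10 CPM in young and 9.49, 11, 8.4 and 9.16 CPM in aged samples, and the groups overlapped through young replicate 3. Eif5a had a much stronger region, with 127.0, 116.1 and 86.0 CPM in young and 139.2, 102.8, 146.8 and 145.0 CPM in aged samples, which overlapped as well (0.28, SE 0.15, adjusted p = 0.277).

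Eef1akmt3, a methyltransferase gene that shares its start region with Mettl1, had 21.8, 19.1 and 23.5 CPM in young and 17.6, 15.7, 15.9 and 16.7 CPM in aged samples. All its aged values were below the young ones (-0.37, SE 0.15, adjusted p = 0.138). The translocase gene Eef2 likewise had lower aged values without overlap, with 80.9, 73.6 and 75 CPM in young and 66.4, 70.0, 66.3 and 71.3 CPM in aged samples (-0.16, SE 0.10, adjusted p = 0.356). Eef1a1, which encodes the factor that brings charged tRNA to the ribosome, showed the reverse, with 110.3, 103.7 and 81.2 CPM in young and 119.0, 111.4, 119.8 and 123.1 CPM in aged samples (0.26, SE 0.12, adjusted p = 0.195). Eef2 was the only member called less accessible in any of the settings, with offsets on mean abundance. Eif5a, with such offsets, had a log2-fold change of -0.07, and the median of the elongation genes was -0.10.

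Of the 20 cytosolic tRNA synthetase genes, 1 (Sars) was called, and the median log2-fold change was 0.09. Groups did not overlap at Sars, Tars and Iars, all with higher aged values. The median was -0.05 with offsets on mean abundance. The 8 synthetases of the multisynthetase complex (Lars, Iars, Mars, Qars, Rars, Kars, Dars and Eprs) had a median of 0.12 and the 12 others had 0.08, and only Sars, which is outside the complex, passed the test. Within the complex Iars was highest, with 23.0, 23.8 and 21.2 CPM in young and 35.9, 28.6, 28.2 and 27.9 CPM in aged samples (0.42, SE 0.14, adjusted p = 0.0828). Rars, the arginyl-tRNA synthetase gene, was lowest, with 20.5, 21.7 and 26.1 CPM in young and 19.8, 17.7, 20.8 and 20.7 CPM in aged samples (-0.20, SE 0.15, adjusted p = 0.424). Lars, the leucyl-tRNA synthetase gene, had the strongest start region of all members per length (65.9 CPM per kb). It measured 49.5, 48.2 and 54.4 CPM in young and 65.6, 56.3, 60.9 and 53.6 CPM in aged samples, which overlapped (0.23, SE 0.11, adjusted p = 0.232, and -0.01 with offsets on mean abundance).

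Of the 17 mitochondrial tRNA synthetase genes none passed the test. At 7 of them every aged sample was above every young one and at none was the reverse seen, beside 21.4% and 8.62% of promoter regions, and the difference from the other role groups was not tested. They included Sars2, Wars2, Fars2 and Mars2, their log2-fold changes ran from 0.21 to 0.51, and the median of the 17 was 0.19. Wars2, the mitochondrial tryptophanyl-tRNA synthetase gene, had 34.1, 33.9 and 32.4 CPM in young and 49.4, 37.9, 43.9 and 47.6 CPM in aged samples (0.42, SE 0.12). Fars2, for phenylalanine, shares its start region with Lyrm4 and was the strongest of the group, with 61.7, 64.2 and 51.5 CPM in young and 79.1, 65.9, 82.6 and 73.4 CPM in aged samples (0.34, SE 0.12, adjusted p = 0.0991). With the strongest region standing for each gene, Aars2 was the lowest of the group (-0.15, SE 0.14, adjusted p = 0.544), with 21.8, 22.3 and 19.7 CPM in young and 20.5, 20.6, 18.9 and 16.8 CPM in aged samples. That region (chr17:45514986-45516646) lies at a start of transcripts that are not annotated as protein-coding, and the region at the start of the coding transcripts (chr17:45506512-45507214) had a log2-fold change of 0.29 with non-overlapping groups. Hars and Hars2, which encode the cytosolic and mitochondrial histidyl-tRNA synthetases, are transcribed from 1 shared start region with 25.7, 23.5 and 23.3 CPM in young and 25.6, 23.5, 26.4 and 27.4 CPM in aged samples (0.09, SE 0.13, adjusted p = 0.713), and its value was -0.01 with offsets on mean abundance.

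**Figure D3:**
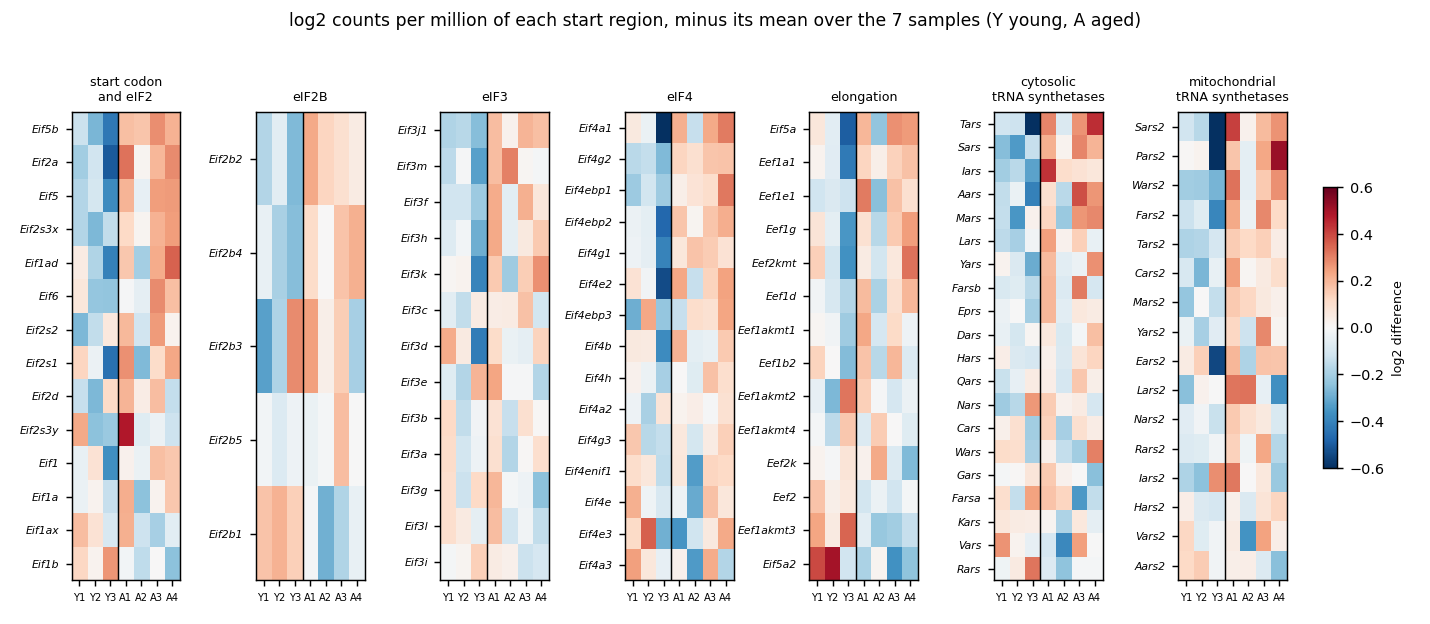
Log2 CPM of each start region in each sample (Y young, A aged) minus its mean over the 7 samples, for 97 of the 98 genes, by role and ordered by log2-fold change within a role. Y3 carries many of the lowest values in the upper rows and A2 is paler than the other aged samples.

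The median of the members differed from sample to sample, while single genes went both ways within a sample. The median over the 97 regions of the log2 CPM, centred on the mean of each region, was -0.03, -0.07 and -0.14 in the young samples and 0.16, -0.06, 0.12 and 0.09 in aged replicates 1 to 4. Aged replicate 2 thus lay among the young samples. The same medians over all promoter regions were -0.03, -0.06 and -0.06 in young and 0.07, -0.03, 0.08 and 0.09 in aged samples. In both sets aged replicate 2 was the lowest of the aged samples. Leaving out aged replicate 2 raised the number of called members from 3 to 8, and leaving out aged replicate 1 gave none.

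The fold change of a member also went with its signal. Across the 97 regions the log2-fold change correlated with the mean log2 CPM (Pearson's r = 0.51, Spearman's rho = 0.53), as a description over regions that share the same 7 libraries, and less with GC content (r = -0.22, rho = -0.17) or width (r = 0.09, rho = 0.12). In the weakest 32 regions the median was -0.02, with 14 above 0. The middle 32 had 0.21, with 31 above 0, and the strongest 33 had 0.22, with 30 above 0. All promoter regions, divided at the same limits, had medians of -0.15, 0.15 and 0.28, but their weakest set also holds regions weaker than any member. In steps of 0.5 log2 CPM their median rose from -0.33 (2.5 to 3.0) to 0.34 (6.5 to 7.0), so that the same trend was present there.

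**Figure D4:**
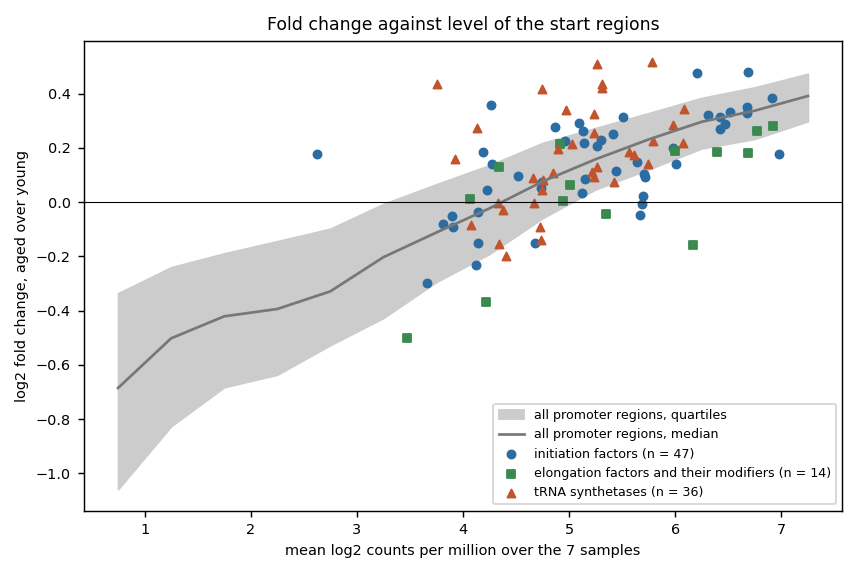
Log2-fold change (aged over young) against the mean log2 CPM over the 7 samples for the 97 member regions, with the median (line) and quartiles (band) of all promoter regions in steps of 0.5 log2 CPM. Members follow the rising line of promoters in general, with many elongation genes below it.

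Set against the median of all promoter regions of like signal, in steps of 0.5 log2 CPM, 47 members were above and 51 below, with a median difference of -0.004. The group of start codon factors and eIF2, formed by symbol, lay above that median at 10 of 14 genes. Of this group Eif1 (-0.16), Eif1a (-0.13), Eif1b (-0.21) and Eif2s1 (-0.03) lay below that median. The eIF3 genes lay above it at 9 of 13 and the mitochondrial synthetases at 11 of 17. The eIF4 genes lay below it at 12 of 15 and the elongation genes at 11 of 14. The lowest differences belonged to Eef2 (-0.46), Eef1akmt3 (-0.34) and Eif5a2 (-0.30), and the highest to Pars2 (0.55), Eif2s3y (0.51) and Eif2s3x (0.38). Pars2, the mitochondrial prolyl-tRNA synthetase gene, had a weak region with 13.3, 13.5 and 7.07 CPM in young and 14.9, 12.7, 15.6 and 19.1 CPM in aged samples, and its groups overlapped (log2-fold change 0.44, SE 0.22, adjusted p = 0.244).

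In all, 25 of the 98 genes shared their start region with another protein-coding gene. The median log2-fold change was 0.18 for the 24 shared regions and 0.15 for the 73 others. Over all promoter regions the medians were 0.18 for 1381 shared and 0.09 for 12330 single ones. Of 202 start and gene body regions of the members, 0 had a second copy on the GRCm38 chromosomes with 95% identity over 80% of their length. The mitochondrial genome and unplaced sequences were not searched. An exon region of Lars2 (chr9:123461792-123462232), with 458.3 CPM per kb, matched chromosome 12 with 98.3% identity over 53.5% of its length. It was not called (log2-fold change 0.37, adjusted p = 0.312 by edgeR).

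Accessible regions inside the members but off every TSS window moved in both directions. There were 98 such regions, of which 3 were more accessible (3.06%, against 1.46% of 23371 such regions in all genes) and 2 less accessible (2.04%, against 3.35%), with a median log2-fold change of -0.04 beside -0.10. The strongest one called was in an intron of Fars2 (chr13:36577695-36579795), with 68.5, 79.7 and 64.6 CPM in young and 98, 98.3, 101.8 and 114.2 CPM in aged samples. It rose by a log2-fold change of 0.53 (SE 0.12, adjusted p = 0.0204). Another intronic region of Fars2 (chr13:36695865-36696977) rose by 0.74 (SE 0.18, adjusted p = 0.0287), from 11.5 ± 1.76 (SD, n = 3) to 19.2 ± 2.63 CPM (SD, n = 4). The third, of which 57.6% lies in exons of Eif1a with coding and untranslated parts (chr18:46606760-46608512), rose by 0.58 (SE 0.15, adjusted p = 0.0361).

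Both regions that fell lie in an annotated 3′ untranslated exon at the end of Eif4g2. The first (chr7:111067686-111069185) had 12.2, 9.30 and 7.40 CPM in young and 3.16, 3.92, 4.90 and 2.93 CPM in aged samples, and its log2-fold change was -1.42 (SE 0.26, adjusted p = 0.0121). The second (chr7:111069484-111070392) had 7.13, 5.78 and 5.75 CPM in young and 3.07, 1.96, 3.03 and 2.93 CPM in aged samples (-1.16, SE 0.26, adjusted p = 0.023). Both called regions thus fell while its start region had higher values in every aged sample (0.33), a difference that was 0.003 with offsets on mean abundance (adjusted p = 0.992). A further region in that exon (chr7:111070646-111071359), 86.1% of which has a copy with 93.3% identity elsewhere in the genome, had 4.17, 3.70 and 2.96 CPM in young and 1.58, 0.785, 3.50 and 2.29 CPM in aged samples. Its groups overlapped and it was not called (-0.89, SE 0.37, adjusted p = 0.155). The called regions are weak, with counts down to 10 reads in a library. The regions that fell differed more than any start region of the members, and the numbers of called gene body regions changed with the scaling and with single libraries.

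The letters TGATGNAA, the core of the composite element that C/EBP and ATF4 bind, were searched on both strands of the 72 matched promoters because ATF4 is known to activate synthetase genes. They stood in 6 (8.33%), against 3.97% of all RefSeq promoters and 2.27% of the 14330 whose start lies at an accessible region. Of these 6 genes, 5 were among the 12 matched cytosolic synthetases. The stretches of 30 bases of 5 of the 6 are given with the matching letters in capitals (reverse complement at all but Yars), at chrX:94212729-94212758, chr6:55037960-55037989, chr13:49682126-49682155, chr15:11399655-11399684 and chr4:129189895-129189924 in the order of the lines, with Eif2s3x and Tars on the minus strand.
Eif2s3x: ttcgccatcatTTTCATCAggtctatgccg
Gars: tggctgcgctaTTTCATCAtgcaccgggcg
Iars: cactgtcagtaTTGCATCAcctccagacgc
Tars: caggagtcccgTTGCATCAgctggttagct
Yars: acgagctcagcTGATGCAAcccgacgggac

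The log2-fold changes of these genes were 0.34 at Aars, 0.36 at Eif2s3x, -0.03 at Gars, 0.42 at Iars, 0.52 at Tars and 0.22 at Yars, with a median of 0.35, against 0.17 for the 66 without the letters. None of the 6 passed the test, and Sars, which did, was not among them. A match of letters is not a bound site. Of the other letters searched, GGGCGG, bound by Sp1, stood in 75% of members (62.3% of RefSeq promoters at an accessible region), CACGTG, the E-box, in 23.6% (10%), CCGGAAGT, bound by ETS factors, in 12.5% (7.82%), GCGCATGC, bound by NRF1, in 11.1% (5.10%), AAGATGGCG, bound by YY1, in 8.33% (2.81%), CCAAT in 34.7% (37.5%), TATAAA in 9.72% (7.03%) and TGACGTCA, bound by CREB, in 1.39% (2.95%).

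Other genes of translation and amino acid supply were followed by a list of 37, all with a start region. Of these, 1 was more accessible in aged liver and 1 less (2.70% each, near the 4.54% and 1.82% of promoter regions), with a median log2-fold change of 0.18. Eif2ak4 encodes GCN2, the kinase that phosphorylates eIF2 when uncharged tRNA accumulates. It had 56.7, 61.0 and 56.2 CPM in young and 92.5, 93.7, 80.8 and 82.6 CPM in aged samples, and rose by a log2-fold change of 0.59 (SE 0.11, adjusted p = 0.0125). The other eIF2 kinase genes had log2-fold changes of 0.39 for Eif2ak1 (adjusted p = 0.0617), 0.18 for Eif2ak2 and 0.48 for Eif2ak3 (adjusted p = 0.0746), and Atf4 had 0.28 (adjusted p = 0.245).

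Asns, the asparagine synthetase gene and an ATF4 target, went the other way. It had 12.1, 11.2 and 15.3 CPM in young and 5.62, 6.28, 6.54 and 7.89 CPM in aged samples, and its log2-fold change was -0.95 (SE 0.21, adjusted p = 0.0204). Its region is weak, with counts down to 28 reads in a library. Promoter regions of like signal had a median of -0.20 for Asns and of 0.30 for Eif2ak4. How the calls of Asns and Eif2ak4 depend on the settings is not given here. Ddit3 (0.36), Trib3 (-0.06) and Chac1 (0.37), also ATF4 targets, did not pass the test, and neither did Ppp1r15a (0.12) and Ppp1r15b (0.18). The region of Ddit3 holds the starts of 3 coding genes and that of Ppp1r15a of 2, so their counts cannot be assigned to 1 gene. None of the 5 release and recycling genes (median 0.27), the 6 poly(A)-binding and mTOR genes (0.17), the multisynthetase scaffold genes Aimp1 and Aimp2 (0.20) or the 12 mitochondrial translation factor genes (0.04) was called.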

How the data were processed

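Per the labels and the methods of the study, the authors trimmed paired ATAC-seq reads (cutadapt 1.13), aligned them to GRCm38 (Bowtie2 2.4.1), kept well-mapped read pairs without duplicates or mitochondrial reads, called peaks per library (MACS2 2.2.7), merged those found in several libraries and deposited raw read counts per region (featureCounts). These counts are the only values used; all 7 columns matched a sample, and 0 did not. Here regions overlapping a GENCODE M21 TSS ± 200 bp were assigned to genes, and all 55680 regions were fitted in edgeR 4.0.16 (TMM, quasi-likelihood test, age as only factor, Benjamini-Hochberg over all regions, no filter, prior count 2 for log2 CPM). The fit was tested on simulated counts of independent libraries, with changes larger than any at the start regions of the members. That test therefore does not bear on changes of their size. DESeq2 1.42.0, other scalings, filterByExpr, leaving out or summing libraries and a replicate block were alternatives. Libraries of 1 age differed beyond sampling noise (chi-square per degree of freedom 2.47 to 6.1 over 9 pairs). Separate libraries of 1 animal may do so as well, so this cannot show which libraries share an animal. None was merged in the main fit. P-values treat the 4 aged libraries as separate and measure the spread between libraries. Intervals are at 95%. Copies were searched with minimap2 2.31. Sequences are from RefSeq (GRCm38.p6). Region coordinates are as deposited, whose first base may count from 0 or 1. The named genes are all called members, the strongest, highest and lowest of each role and both pairs of shared or sex-linked copies, and others described here (such as Iars, Eef2 and Pars2) were chosen after their values were seen. The members, lists and letters searched were chosen with earlier results of these data known. The plots by gene leave out 1 member, and 1 matching stretch of sequence is not reported here.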

Additional observations from a re-analysis of the deposited data

Results flagged for a closer look

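Among the 4 aged samples of each of 24 regions of named genes, the gap between the extreme sample and its nearest neighbour as a share of the range was above Dixon's 95% critical value in 3, where chance flags about 1 in 20 groups. At Eif5a the ratio was 0.851 for aged replicate 2, with log2 CPM of 7.12, 6.69, 7.20 and 7.18 in aged replicates 1 to 4 and 6.99, 6.86 and 6.43 in young samples. At Eif3j1 it was 0.853, again for aged replicate 2, with 6.86, 6.70, 6.88 and 6.85 in aged and 6.49, 6.51 and 6.42 in young samples. At Eif2s3y it was 0.852 for aged replicate 1, with 3.11, 2.56, 2.59 and 2.5 in aged and 2.85, 2.38 and 2.4 in young samples.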

How the results depend on the processing

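The number of more accessible members (3) became 0 at an adjusted p under 0.01, 9 with DESeq2, 1 with total counts, 0 with offsets on mean abundance and 11 with offsets on GC content, and it was 0, 1, 1, 8 and 1 when aged replicates 1 and 3, 1 and 4, 2 and 3, 2 and 4 or 3 and 4 were summed as libraries of 1 animal. It ran from 0 to 8 when 1 library was left out. The number of less accessible members (0) became 1, Eef2, with offsets on mean abundance. The median log2-fold change of the members (0.153) was 0.037 with total counts, -0.029 with offsets on mean abundance and 0.115 to 0.185 with 1 library left out. More accessible gene body regions (3) became 0 at 0.01, 6 with DESeq2, 1 with total counts, 0 with offsets on abundance, 6 on GC content and 0, 5 and 7 with aged 1 and 3, 1 and 4 or 2 and 4 summed, and ran from 0 to 6 with 1 library left out. Less accessible ones (2) became 0 at 0.01, 1 with offsets on abundance and 1 with aged 1 and 3 summed, and ran from 0 to 3 with 1 library left out.

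Total counts moved the median of all regions from -0.035 to -0.153 and with it the signs of eIF3 (-0.064), elongation (-0.021), cytosolic synthetases (-0.030) and Hars with Hars2 (-0.031). Signs changed with offsets on mean abundance for eIF2B (-0.018), eIF4 (-0.074), elongation (-0.096), cytosolic synthetases (-0.051), Eif2b4 (-0.018), Eif5a (-0.072), Hars with Hars2 (-0.007) and Lars (-0.006). Aars2 was at 0.291 by coding transcripts only and 0.063 with its regions summed, and Eif2s3y ran from -0.016 (without aged replicate 1) to 0.357 with 1 library left out. The cause of these other changes was not tested.

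Correlations of same-numbered samples, taken over deviations from the mean of each age, were -0.119, 0.0565 and 0.0298. Over all pairs of a young and an aged sample they ran from -0.151 to 0.232, and only young replicate 2 correlated best with its own number. With so few samples this check cannot tell whether the numbers mark a pairing. With a replicate block (6 samples) 2 members were called, Eif5b and Sars2, against 3 in the same samples without it, and 6 gene body regions were more accessible in both, and the eIF2B median was 0.245 with it and 0.233 without.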
